A study of Homo sapiens with 4 samples.

Results

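The outer part of the short arm of human chromosome 19 was examined for sites at which GapR-GFP was enriched in HCT116 cells, a human colorectal carcinoma line. The members were all deposited peaks on chromosome 19 with a summit below position 19000000 of the hg38 assembly. In what follows, the arm means this window and not the whole short arm. They numbered 1096 of 81411 peaks in the list of WT replicate 1 (1.35% of those on placed chromosomes) and 801 of 42656 peaks in the list of WT replicate 2 (1.88%). Membership went by position alone, but the window was chosen with earlier results of these data known.

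GapR is a bacterial protein of Caulobacter that binds overtwisted DNA, and a GFP-tagged form serves as a sensor of positive supercoils. Supercoiling arises wherever a polymerase moves along a helix that cannot turn freely: DNA ahead of the enzyme is overtwisted and DNA behind it is undertwisted, until topoisomerases relax both. Gene-dense chromosome arms bring many starts, ends and divergent gene pairs close together, and the short arm of chromosome 19 is among the most gene-dense regions of the human genome. CUT&RUN cuts out the DNA around an antibody-bound protein, here through its GFP tag, and the fragments are sequenced.

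The study made 4 libraries, 2 called WT (wild-type GapR-GFP by the series' design text, genotype label wildtype) and 2 called MT. For MT the design text names a mutant GapR-GFP, while the genotype label reads TOP2A + TOP2B double knockout, the loss of both type II topoisomerases. The labels do not say whether one or both hold, so these libraries are called MT throughout, and the difference between WT and MT cannot be assigned to either. The treatment text gives 2 µM palbociclib, an inhibitor of cyclin D kinases that holds cells in G1, for 28 h in WT and MT alike, whereas the design text calls the cells asynchronous. Whether the WT replicates came from separate cultures is not stated. Each WT library was compared by the authors with the same MT replicate 1, so the lists share their control, and MT replicate 2 was not analysed here. Fragments after filtering numbered 21774260 in WT replicate 1, 27443146 in WT replicate 2 and 23356540 in MT replicate 1. With 2 lists and 1 control no test across samples could be made: shares carry 95% Wilson intervals that cover counting error only, and the spread between the lists is given where a value depends on it.

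Replicated peaks are those of WT replicate 1 that share 1 bp or more with any peak in the list of WT replicate 2, and each is placed at its WT replicate 1 summit. The fold of a peak is the authors' ratio of WT to MT at the summit, after adding 1 to both levels. The MT level is the local control level on the scale of the WT library, worked back from the fold. Its lowest value, 1.87 fragments for WT replicate 1 and 2.20 for WT replicate 2, is the genome-wide mean used where local MT coverage lay below it. Where 2 values of a site are given, that of WT replicate 1 comes before that of WT replicate 2.

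Each window below runs from 250 bases before a listed start to 50 bases after it (RefSeq, GRCh38.p14). The first 4 are shown because the summits of both lists fell inside them, at the best-ranked sites with that property; sites are ranked by the worse of their fold ranks in the lists. The last 2 belong to the longest genes with a listed start and no summit in either list, and stand for contrast. Capitals mark GGGCGG on either strand, a GC box, and a loose form of the NRF1 motif core. This form leaves the 2 middle bases free and is called the NRF1 core below. Of its matches shown, that of CATSPERD is a palindrome and that of HSD11B1L is not. Whether a match is an NRF1 site was not tested.

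CATSPERD: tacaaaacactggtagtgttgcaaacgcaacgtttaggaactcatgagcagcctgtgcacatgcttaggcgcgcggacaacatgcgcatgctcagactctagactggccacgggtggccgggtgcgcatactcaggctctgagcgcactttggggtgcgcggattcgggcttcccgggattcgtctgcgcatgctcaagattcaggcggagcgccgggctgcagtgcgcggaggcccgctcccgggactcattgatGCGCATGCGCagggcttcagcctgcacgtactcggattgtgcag
HSD11B1L: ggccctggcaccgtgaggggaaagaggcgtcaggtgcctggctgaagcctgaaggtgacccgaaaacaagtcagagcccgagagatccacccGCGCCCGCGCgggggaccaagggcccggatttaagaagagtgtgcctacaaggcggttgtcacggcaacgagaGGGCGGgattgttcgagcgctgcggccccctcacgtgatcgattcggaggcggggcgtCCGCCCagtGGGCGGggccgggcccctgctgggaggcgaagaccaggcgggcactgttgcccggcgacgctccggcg
IQCN: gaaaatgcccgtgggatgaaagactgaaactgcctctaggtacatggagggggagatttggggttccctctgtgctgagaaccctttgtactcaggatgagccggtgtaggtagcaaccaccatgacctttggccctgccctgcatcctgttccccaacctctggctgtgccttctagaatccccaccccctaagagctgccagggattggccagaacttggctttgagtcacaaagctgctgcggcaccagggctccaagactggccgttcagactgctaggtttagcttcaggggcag
TIMM13: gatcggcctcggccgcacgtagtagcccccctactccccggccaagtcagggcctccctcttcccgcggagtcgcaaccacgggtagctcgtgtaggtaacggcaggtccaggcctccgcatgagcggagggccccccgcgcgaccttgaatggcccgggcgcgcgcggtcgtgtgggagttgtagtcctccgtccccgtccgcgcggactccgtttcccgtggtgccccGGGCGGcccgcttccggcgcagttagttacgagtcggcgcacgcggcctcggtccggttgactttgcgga
ADGRE3: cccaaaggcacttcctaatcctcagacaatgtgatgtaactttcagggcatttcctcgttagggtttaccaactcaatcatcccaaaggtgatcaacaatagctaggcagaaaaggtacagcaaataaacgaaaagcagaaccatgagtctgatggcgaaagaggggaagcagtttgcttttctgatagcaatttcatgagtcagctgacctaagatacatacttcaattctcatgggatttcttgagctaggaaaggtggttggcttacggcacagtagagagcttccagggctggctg
ZNF560: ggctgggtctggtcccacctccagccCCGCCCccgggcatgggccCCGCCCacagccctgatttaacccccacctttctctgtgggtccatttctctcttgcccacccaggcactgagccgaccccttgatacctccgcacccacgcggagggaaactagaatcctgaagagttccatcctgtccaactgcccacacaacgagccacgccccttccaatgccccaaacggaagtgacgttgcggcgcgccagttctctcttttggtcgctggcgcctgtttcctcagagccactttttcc

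The CATSPERD window (chr19:5720387-5720686, plus strand) belongs to a subunit of the sperm calcium channel. It also covers the start of LONP1, the protease of the mitochondrial matrix, which is read the other way. Its summits fell on base 78 in WT replicate 1 and base 37 in WT replicate 2, and the site reached 47 and 33 fragments in the WT libraries against an MT level of 1.87 and 2.35. It held 27 CpG and 1 NRF1 core. The HSD11B1L window (chr19:5680777-5681076, plus strand) also has a neighbour pointing away from it: MICOS13, a subunit of the complex that shapes mitochondrial cristae. It held 32 CpG, 3 GGGCGG and 1 NRF1 core, with 37 and 29 fragments at summits on bases 3 and 84, against an MT level of 1.87 and 2.20.

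The TIMM13 window (chr19:2427537-2427836, minus strand) belongs to a chaperone of mitochondrial protein import. It was 71.0% GC with 42 CpG, the most of the 6 windows, and its summits fell on bases 41 and 37. The IQCN window (chr19:18274403-18274702, minus strand), of a gene for a sperm protein, was 56.3% GC and held 4 CpG and neither marked motif. Its site is the longest replicated peak of the arm, 6840 bp, with 38 and 35 fragments. Of the contrasts, the ADGRE3 window (chr19:14674795-14675094, minus strand) held 4 CpG, and the ZNF560 window (chr19:9498567-9498866, minus strand) held 16 CpG and 2 GGGCGG. The listed start of ZNF560 lies inside the gene as annotated. A window with 4 CpG thus occurs both with a site (IQCN) and without one (ADGRE3).

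GapR peaks were denser in this window, below 19 Mb, than on any whole chromosome compared. WT replicate 1 had 57.7 peaks per Mb on the arm and 27.3 per Mb elsewhere, and WT replicate 2 had 42.2 per Mb on the arm and 14.2 per Mb elsewhere. Replicated peaks numbered 617, or 32.5 per Mb, against 10.6 per Mb elsewhere, a ratio of 3.06. None of the 22 other chromosomes with at least 100 peaks exceeded it in either list: chromosome 17 came next with 50.6 and 33.6 peaks per Mb, and the rest of chromosome 19 had 41.7 and 30.6 per Mb. Relative to all chromosomes, the density of the arm was 2.0996-fold in WT replicate 1 and 2.93-fold in WT replicate 2, a mean of 2.51 ± 0.586 (SD, n = 2).

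The arm holds 546 protein-coding genes, 28.7 per Mb against 6.56 per Mb elsewhere. Genes were thus 4.38 times as dense while replicated peaks were 3.06 times as dense, and the peaks per gene were fewer: 1.13 on the arm and 1.62 elsewhere. The rest of chromosome 19 had 0.990 replicated peaks per gene and chromosome 17 had 1.78.

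**Figure D1:**
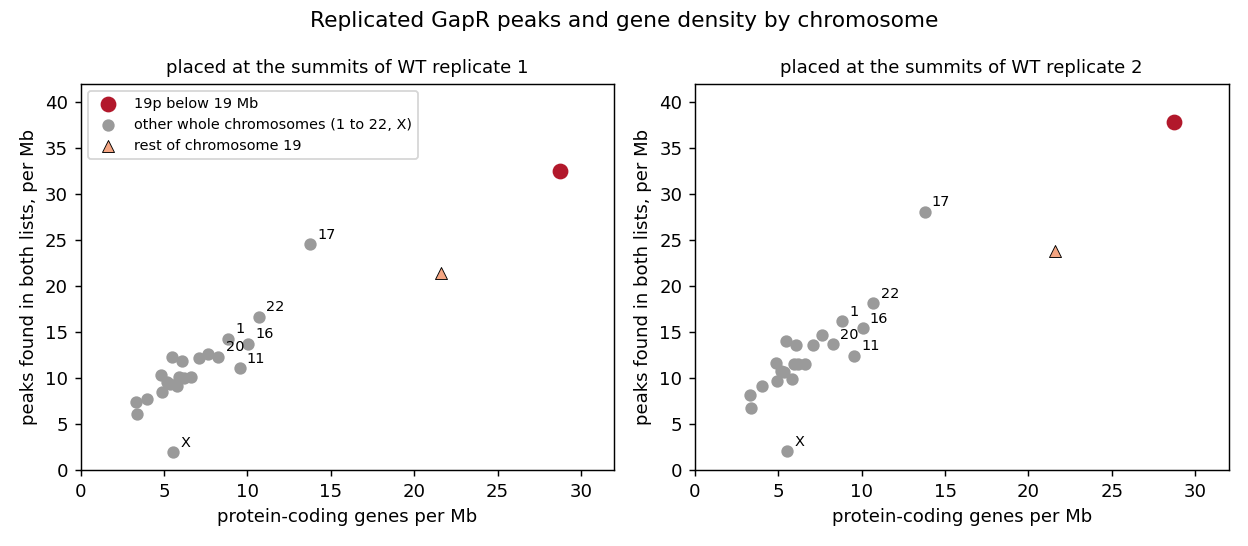
Replicated peaks per Mb (vertical axis) against protein-coding genes per Mb (horizontal axis) for the 19p window (red), the other chromosomes (grey) and the rest of chromosome 19 (triangle), placed at the summits of WT replicate 1 (left) and WT replicate 2 (right). The 19p point, at 28.7 genes and 32.5 or 37.8 replicated peaks per Mb, is the highest and the farthest right, while chromosome 17 reaches 24.6 or 28.1 peaks with 13.8 genes per Mb.

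With an overlap of 1 bp or more, most peaks of the arm were found in both lists. Of the WT replicate 1 peaks, 56.3% (53.3 to 59.2%) overlapped a WT replicate 2 peak on the arm, against 38.8% elsewhere and 39.1% of the whole list. Of the WT replicate 2 peaks, 89.8% (87.5 to 91.7%) did so on the arm, against 84.4% elsewhere and 84.5% of the whole list. Summits were also closer together, with a median distance of 85 bp on the arm and 129 bp elsewhere. When 50% of both peaks had to overlap, the share of WT replicate 1 peaks on the arm was 32.3%. Peaks of WT replicate 1 were also longer on the arm, with a median of 683.5 bp against 538 bp elsewhere. Both lists were called against the same MT library. The part of peak length and of the shared control in the overlap was not tested.

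Peaks of the arm had higher folds. When the WT replicate 1 peaks of all chromosomes were put in 5 classes by fold, the highest class held 35.3% of the arm's peaks and 19.8% of those elsewhere. In that class 95.1% were replicated on the arm and 91.8% elsewhere; in the lowest class 10.0% were replicated on the arm and 10.1% elsewhere. The median fold of replicated peaks was 6.91 on the arm and 5.92 elsewhere in WT replicate 1, and 5.08 on the arm and 4.63 elsewhere in WT replicate 2. The median number of fragments at the summit was nearly the same, 21 on the arm and 20 elsewhere in WT replicate 1, and 17 both on the arm and elsewhere in WT replicate 2.

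The MT level under the peaks differed. On the arm 66.8% of WT replicate 1 peaks (63.9 to 69.5%) stood where MT was at its lowest value, against 41.5% elsewhere, and in WT replicate 2 the shares were 56.8% on the arm (53.3 to 60.2%) and 32.1% elsewhere. Among the 22 other chromosomes the X chromosome alone was higher, with 87.0% and 79.3%. Among peaks at the lowest MT level alone, the density of replicated peaks on the arm was 5.37 times that of all chromosomes. The part of the MT level in the higher folds was not tested.

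**Figure D2:**
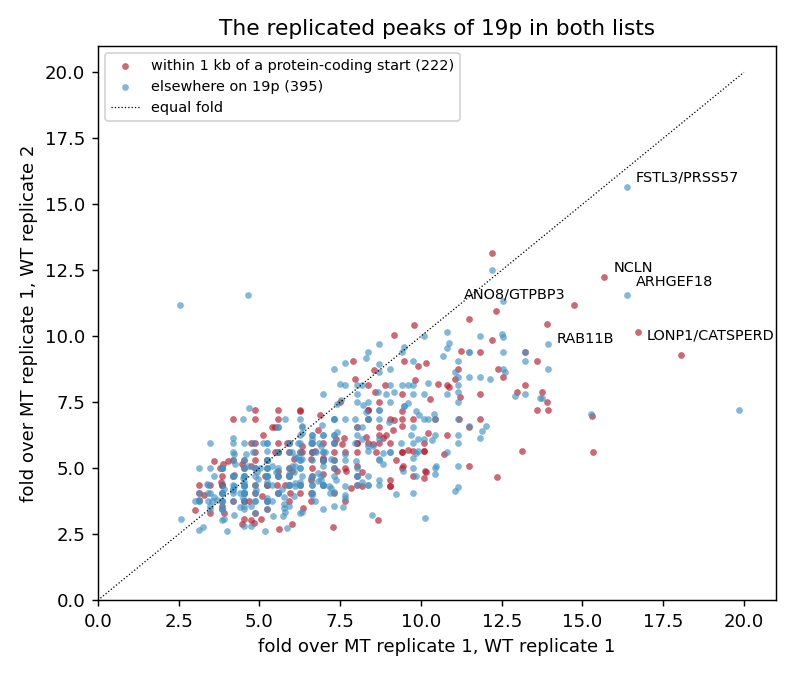
Fold over MT replicate 1 of the 617 replicated peaks of 19p in WT replicate 1 (horizontal axis) and WT replicate 2 (vertical axis), red where the summit lies within 1 kb of a protein-coding start and blue elsewhere, with the best-ranked sites named by their genes. Most points lie below the dotted line of equal fold, 472 of 617 being higher in WT replicate 1, and the FSTL3/PRSS57 site is high in both.

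Across the 617 replicated peaks the fragments at the summit ran from 8 to 76 in WT replicate 1 (median 21) and from 10 to 52 in the best overlapping peak of WT replicate 2 (median 18), while the MT level ran from 1.87 to 7.92 and from 2.20 to 8.22. The folds of the lists went together, with Spearman's rho of 0.66 over 617 peaks on the arm and 0.65 over 31198 elsewhere, both being ratios to the same MT library.

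Peaks were spread along the window from the tip to 19 Mb. The 19 bins of 1 Mb held 13 to 47 replicated peaks (median 34) and 16 to 42 protein-coding genes (median 30). The most replicated peaks, 47, lay between 1 and 2 Mb from the tip, a stretch with 39 genes, and the fewest, 13, lay between 9 and 10 Mb, where 12 of 24 genes belong to the zinc finger family. The bin from 13 to 14 Mb had 42 replicated peaks with 16 genes, the fewest genes of any bin and the highest ratio, 2.63 per gene. It includes CACNA1A, which encodes a neuronal calcium channel and is the longest gene of the arm. Over the 19 bins Spearman's rho between genes and replicated peaks was 0.58, and over 2944 bins elsewhere it was 0.74, where neighbouring bins are not independent.

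**Figure D3:**
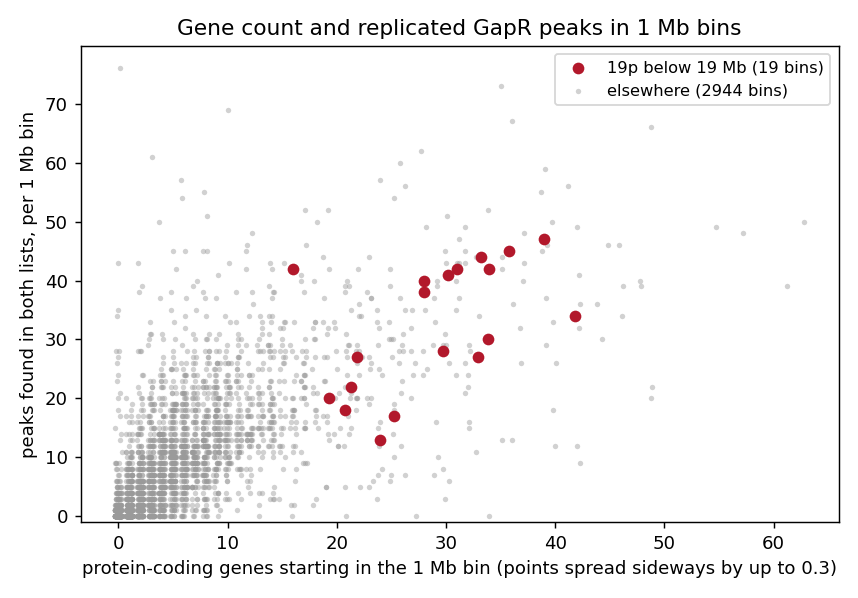
Replicated peaks per 1 Mb bin (vertical axis) against protein-coding genes starting in the bin (horizontal axis) for the 19 bins of 19p (red) and 2944 bins elsewhere (grey). The red points lie among the grey points of like gene count, from 13 to 47 peaks.

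Bins of like gene count were compared next. Bins with 30 or more genes had a median of 41.5 replicated peaks on the arm (10 bins) and 37 elsewhere (79 bins, quartiles 26 and 45). Bins with 20 to 29 genes had a median of 22 on the arm (7 bins) and 27 elsewhere (119 bins, quartiles 18 and 33). Both medians of the arm lie within the quartiles of the other bins. The 2 bins of the arm with 10 to 19 genes had a median of 31, above the quartiles of 13 and 25 of the 434 bins elsewhere.

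Past the window the density was lower. Between 19 and 24 Mb, outside the window, there were 32 replicated peaks in 5 Mb, or 6.4 per Mb, and 36 of the 60 genes there were zinc finger genes. At the limit itself, the last WT replicate 1 peak inside had 9 fragments and a fold of 3.48 and the first outside had 25 fragments and a fold of 5.50. In WT replicate 2 the last inside had 21 fragments and a fold of 4.86 and the first outside had 33 fragments and a fold of 10.3.

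The 2 widest stretches of the arm without a replicated peak were zinc finger clusters. The widest, 369837 bp, covers 8 protein-coding genes, all of this family, from ZNF700 to ZNF136, and held 2 unreplicated peaks of WT replicate 1 and 4 of WT replicate 2. The next, 260554 bp, covers 5 genes from ZNF177 to ZNF121, again all of this family. The third, 252196 bp, holds SIN3B, a corepressor scaffold, F2RL3, a thrombin receptor, and CPAMD8. For comparison, neighbouring replicated summits on the arm were a median of 16120 bp apart, and 26868 bp elsewhere.

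Gene starts carried the largest share of the sites. Of the replicated summits, 222 (36.0%, 32.3 to 39.8%) lay within 1 kb of a listed protein-coding start, against 25.5% elsewhere. These surroundings make up 5.34% of the bases of the arm and 1.27% of those elsewhere. The starts thus held 6.74 times their share of bases on the arm and 20.1 times elsewhere. These ratios are relative to the peak density of each region. Per Mb of such surroundings there were 219 replicated summits on the arm and 214 elsewhere. Counted at either gene boundary, which needs no strand, 40.7% (36.9 to 44.6%) of the summits lay within 1 kb on 10.2% of the bases, against 27.2% on 2.39% of the bases elsewhere.

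Gene interiors held fewer sites than their length. On the arm 57.8% of the bases lie inside protein-coding genes away from boundaries, and 29.8% of the replicated summits fell there, 0.516 times the share of bases. Elsewhere 40.9% of the bases and 36.6% of the summits fell there, 0.895 times the share. Per Mb of such interior, however, the arm had more replicated summits, 16.7 against 9.50 elsewhere. Of all peaks of WT replicate 1, replicated or not, 38.0% were interior on the arm and 53.9% elsewhere. The median fold of replicated peaks was 7.39 at starts and 6.32 inside genes on the arm.

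Around the starts of genes of at least 10 kb the summits formed a narrow peak. Over the 284 such genes of the arm with a listed strand there were 154 replicated summits within 1 kb of the start, 0.271 per kb per gene, and 18 within 1 kb of the end, 0.0317 per kb per gene. Elsewhere the values were 0.274 at starts and 0.0199 at ends, over 11289 genes. On the arm 72 summits lay in the 500 bp before the start and 53 in the 500 bp after it, while elsewhere 2535 lay before and 2645 after.

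Beyond the ends the density was higher than before them. From 1 to 5 kb beyond the end there were 54 summits on the arm, 0.0475 per kb per gene, and from 1 to 5 kb before it there were 17, 0.0150 per kb per gene. Elsewhere the values were 0.0276 beyond and 0.0108 before. Starts of the next genes lie in this stretch as well. Without summits within 1 kb of any start, 30 remained beyond the ends and 15 before them on the arm (0.0264 and 0.0132 per kb per gene), and 690 beyond and 454 before elsewhere (0.0153 and 0.0101). The stretches around starts were not taken off the length, so these restricted densities are too low by an amount that was not measured. This restriction was chosen after the values were seen.

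**Figure D4:**
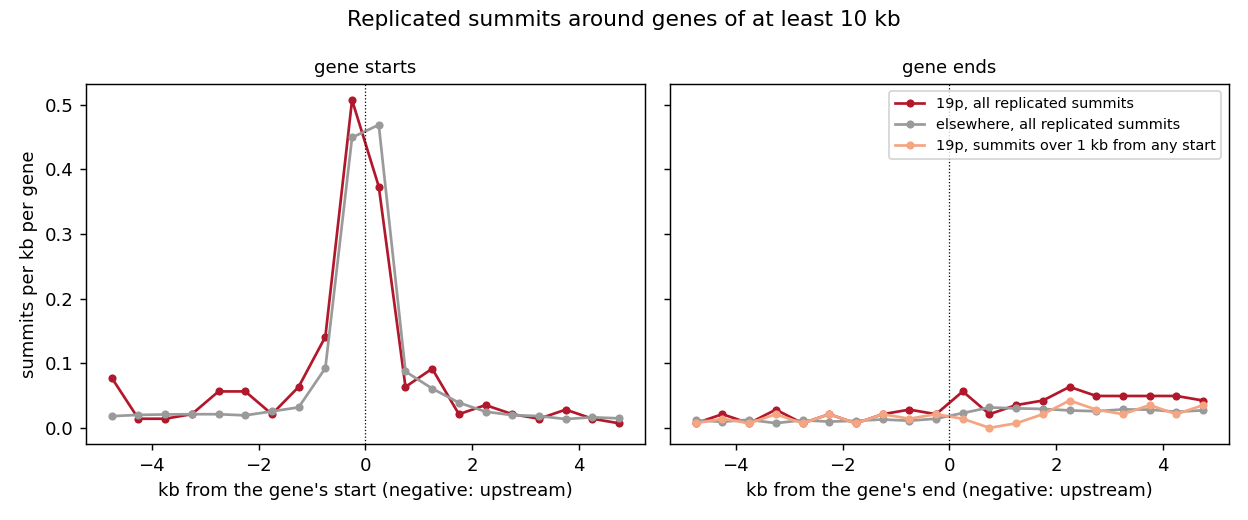
Replicated summits per kb per gene in 500 bp steps around the starts (left) and ends (right) of genes of at least 10 kb, for 284 genes of 19p (red), 11289 genes elsewhere (grey) and, at ends, for 19p summits over 1 kb from any start (light). Both regions show a narrow maximum at the start and no such maximum at the end, where the density within 1 kb is 0.0317 on 19p and 0.0199 elsewhere.

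The spaces between genes followed the same order on the arm and elsewhere. A replicated summit lay in 53.0% (42.4 to 63.4%) of the 83 divergent gaps of the arm, in 37.4% (30.5 to 44.7%) of 174 tandem gaps and in 19.2% (11.8 to 29.7%) of 73 convergent gaps. Elsewhere the shares were 47.0%, 39.7% and 23.4%. The intervals of divergent and convergent gaps do not overlap on the arm, but the gaps differ in length, with medians of 8838 bp for divergent, 5909 bp for tandem and 4321 bp for convergent gaps. Per kb of gap the arm had 0.0531 summits in divergent gaps, 0.0408 in tandem gaps and 0.0254 in convergent gaps. Without summits within 1 kb of a start these densities were 0.0273 in divergent gaps, 0.0181 in tandem gaps and 0.0254 in convergent gaps. The stretches around starts were not taken off the gap length, so these last densities cannot be compared between the kinds of gap.

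Of the 546 protein-coding genes, 391 (71.6%, 67.7 to 75.2%) had a replicated summit inside or within 5 kb, against 67% of all protein-coding genes. In WT replicate 1 alone 82.6% had a summit, against 78.4% of all protein-coding genes, and in WT replicate 2 alone 75.6%, against 68.7%. A replicated summit fell inside 42.1% of the genes on the arm and 47.1% elsewhere. Genes of the arm were shorter, with a median of 13578 bp against 25032 bp. Under 10 kb this share was 30.5% on the arm and 23.3% elsewhere, and from 10 to 50 kb 47.2% and 46.6%. At 50 kb or more it was 57.9% on the arm and 68.5% elsewhere. A replicated summit lay within 5 kb of at least 2 genes at 179 of the 617 sites (95% interval 25.6 to 32.7%), against 13.2% elsewhere. Neighbours therefore share sites in what follows. Genes under 10 kb, which make up 37.2% of the arm's genes and 27.8% elsewhere, had a site at 63.1% (56.2 to 69.4%) on the arm and at 49.1% elsewhere, while genes of 50 kb or more had one at 77.2% and 78.9%.

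The best-ranked site of the arm lay in FSTL3, which encodes a secreted binder of activin (676392 to 683385), with its summit 4464 bp past the start, and within 5 kb of PRSS57, a neutrophil serine protease gene. It had 46 and 49 fragments in the WT libraries against an MT level of 1.87 and 2.20, or 16.4-fold and 15.6-fold. The next was deep inside ARHGEF18 (7348937 to 7479989), an exchange factor for small GTPases, 42510 bp past its listed start, with 46 and 36 fragments (16.4-fold and 11.6-fold). Both are interior sites with the MT level at its lowest.

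At NCLN (3185930 to 3209575), a membrane protein of the endoplasmic reticulum, the site lay 526 bp before the start with 44 and 40 fragments, or 15.7-fold and 12.2-fold. At GTPBP3 (17334982 to 17342731), which modifies mitochondrial transfer RNA, and its neighbour ANO8 it had 55 and 43 fragments, or 14.7-fold and 11.2-fold. The site shared by LONP1 and CATSPERD, whose promoter is printed above, was 16.7-fold and 10.1-fold. RAB11B, a GTPase of recycling endosomes, had 40 and 36 fragments 169 bp past its start (13.9-fold and 10.4-fold).

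CELF5, an RNA-binding regulator of splicing, had an interior site 51706 bp past its start with 39 and 30 fragments (13.9-fold and 9.70-fold). The site of MICOS13 and the one upstream of DPP9, a dipeptidyl peptidase, had the same values, 37 and 29 fragments at the lowest MT level, or 13.2-fold and 9.39-fold. The tenth site, by MRPL34, a mitochondrial ribosomal protein gene, and DDA1, had 36 and 37 fragments. Another 3 sites were singled out after their values were seen. One in HOOK2 had the highest fold of WT replicate 1, 19.9 from 56 fragments, but 7.20 from 22 fragments in WT replicate 2. The start of SLC27A1, a fatty acid transporter gene, had the most fragments, 76 and 52 (18.1-fold and 9.30-fold), and the start of ECSIT had 34 and 41 (12.2-fold and 13.1-fold).

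The longest replicated peaks had their summits near starts or inside genes. After the 6840 bp peak at IQCN came, among others, one of 5920 bp over the stretch where DOT1L and AP3D1 overlap. Next were one of 5523 bp at PLIN3, a lipid droplet protein gene, and one of 5275 bp between SLC27A1 and PGLS. The summit of the last lay inside a long noncoding RNA gene and not in a protein-coding gene. In WT replicate 2 the peaks overlapping these 4 were shorter, from 2240 to 2680 bp.

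GNG7, a G protein gamma subunit gene of 191476 bp (2511219 to 2702694), had the most replicated summits of the arm, 13, with 17 in each list. DNAJB1, an HSP40 chaperone gene, had 10, TJP3, a tight junction gene, 8, HOOK2 8 and AP3D1 6. At least 3 replicated summits were counted at 78 genes, 14.3% of the arm, against 15.9% of all protein-coding genes. The other long genes had fewer: 5 in CACNA1A (300038 bp), 4 at the histone demethylase gene KDM4B, 4 at MYO9B, 3 at the insulin receptor gene INSR and 1 at MUC16 (216908 bp), a mucin gene.

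Some short genes were covered by replicated peaks over most of their length. MISP3 (2277 bp) was covered in full by a peak of 4298 bp, EPOR, the erythropoietin receptor gene, over 89.5% by 3 summits inside and 1 nearby, REX1BD over 68.7%, TMEM205 over 65.5%, GDF15, a stress-induced cytokine gene, over 62.4% and PRR36 over 62.0%. At the other end, 83 of the 546 genes had no summit in either list. The longest of these were ADGRE3 (74728 bp), an adhesion receptor of myeloid cells, ZNF560, SLC1A6, a glutamate transporter gene, OR7E24, annotated in the olfactory receptor family, and CLEC17A, a lectin of B cells.

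The list for mitochondrial energy also holds genes of protein import (TIMM13 and TIMM44) and of the mitochondrial ribosome (MRPL4, MRPL34 and MRPL54). All 11 genes of this mixed list had a replicated site, and no 2 of them had the same best site, with median folds of 9.16 and 6.88. UQCR11, a small subunit of complex III, had 40 and 23 fragments 296 bp before its start (13.9-fold and 7.51-fold). TIMM13 had 38 and 28 fragments and ATP5F1D, a subunit of ATP synthase, 26 and 32 (9.16-fold and 10.0-fold). Of the complex I genes, NDUFA7 had 10.5-fold and 6.88-fold, NDUFS7 6.62-fold and 5.63-fold, NDUFA11 6.98-fold and 4.80-fold, and NDUFB7 4.91-fold and 4.18-fold. The list's share, 100% (74.1 to 100%), stands beside 71.6% for all genes of the arm, whose medians were 8.01-fold and 5.95-fold.

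The 5 immediate early genes all had a site (56.6 to 100%, an interval that includes the 71.6% of the arm). JUNB, an AP-1 subunit gene of 1830 bp, had 4 replicated summits inside or within 5 kb, the best of them with 31 and 31 fragments (10.9-fold and 9.73-fold) lying 1229 bp before its start and inside the neighbour HOOK2. GADD45B, a stress response gene, had 23 and 22 fragments 739 bp before its start. IER2 had 7.95-fold and 6.85-fold, KLF2 5.92-fold and 5.95-fold, and JUND, the lowest, 4.73-fold and 3.05-fold.

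Of 14 chromatin genes, 12 had a site (85.7%, 60.1 to 96.0%, which includes the 71.6% of the arm). UHRF1, which recognises hemimethylated DNA, had 39 and 27 fragments (13.9-fold and 8.76-fold) 5756 bp past its start. DOT1L, a histone methyltransferase gene, had 11.8-fold and 6.88-fold at a site outside the gene, within 1 kb of another protein-coding start. SMARCA4, the ATPase of the BAF remodeller, had 5.06-fold and 3.09-fold, and DNMT1, the maintenance DNA methyltransferase, 5.81-fold and 4.36-fold. SIN3B had no replicated summit, with 1 peak in WT replicate 1 and 0 in WT replicate 2.

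Among genes of the Pol II machinery and transcription factors, 16 of 19 had a site (84.2%, 62.4 to 94.5%), and among RNA-binding and splicing genes 13 of 16 had one (81.3%, 57.0 to 93.4%). Both intervals include the 71.6% of the arm. TCF3, a helix-loop-helix factor, shared the site of UQCR11, which lies beyond its own end. GTF2F1, the large subunit of TFIIF, had 38 and 22 fragments 197 bp before its start (13.6-fold and 7.20-fold). POLR2E, LYL1 and CREB3L3, a liver factor and the longest of those without, had none. Of the splicing list, CIRBP, the cold-inducible RNA-binding protein, had 11.5-fold and 9.39-fold at a site 2967 bp before its start. R3HDM4 had 11.5-fold and 8.45-fold at a site inside a protein-coding gene, 4071 bp past its start. PTBP1, UPF1 and XAB2 had none, and the site of SUGP2 lies past the window limit.

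The intervals of the next 4 lists all include the 71.6% of the arm. Kinase and growth signalling genes had a site at 19 of 22 (66.7 to 95.3%), best at JAK3 (10.7-fold and 9.27-fold) and near MAP2K7 (13.2-fold and 7.82-fold), and not at STK11, GNA15 or PLK5. The small GTPase list, which includes the regulators ARHGEF18 and ARHGAP45, had one at 6 of 7 (48.7 to 97.4%), all but DIRAS1. Genes of the ribosome and translation had one at 7 of 9 (45.3 to 93.7%), while RPS15 and RPS28 had none. RPL36 had 12.2-fold and 12.5-fold from a site 3327 bp before its start. FARSA, a phenylalanyl-tRNA synthetase subunit, had 11.5-fold and 6.57-fold from a site 4554 bp before its start. Neuronal genes had one at 7 of 9 (45.3 to 93.7%), among them RAB3A (9.91-fold and 8.89-fold) and CELF5, and not at ELAVL3 or CPAMD8.

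The intervals of the zinc finger and olfactory receptor lists lie below the 71.6% of the arm, and those of the myeloid and lymphoid list and the cytochrome P450 4F list include it. Zinc finger genes had a site at 26 of 47 (55.3%, 41.2 to 68.6%), best at ZNF653 (12.4-fold and 8.76-fold) and at ZNF699, with 44 and 29 fragments 154 bp before its start (13.8-fold and 7.90-fold). Olfactory receptor genes had one at 2 of 20 (10.0%, 2.79 to 30.1%): OR7A17, with 28 and 30 fragments, and OR7G3, with 12 and 13 fragments, in both cases outside the gene. Myeloid and lymphoid genes had one at 15 of 25 (95% interval 40.7 to 76.6%). There 3 adhesion genes, ICAM1, ICAM4 and ICAM5, shared a single site of 30 and 40 fragments (9.80-fold and 10.4-fold).

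The cytochrome P450 4F cluster, whose enzymes hydroxylate fatty acids, had a site at 4 of 6 genes (66.7%, 29.999 to 90.3%). CYP4F22 had 46 and 39 fragments at a site beyond its end (9.94-fold and 7.02-fold, with an MT level of 3.73 and 4.70), and CYP4F11 had 24 and 18 fragments 291 bp before its start. CYP4F2 and CYP4F8 had none. Whether any of these genes was transcribed in these cells was not measured here.

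**Figure D5:**
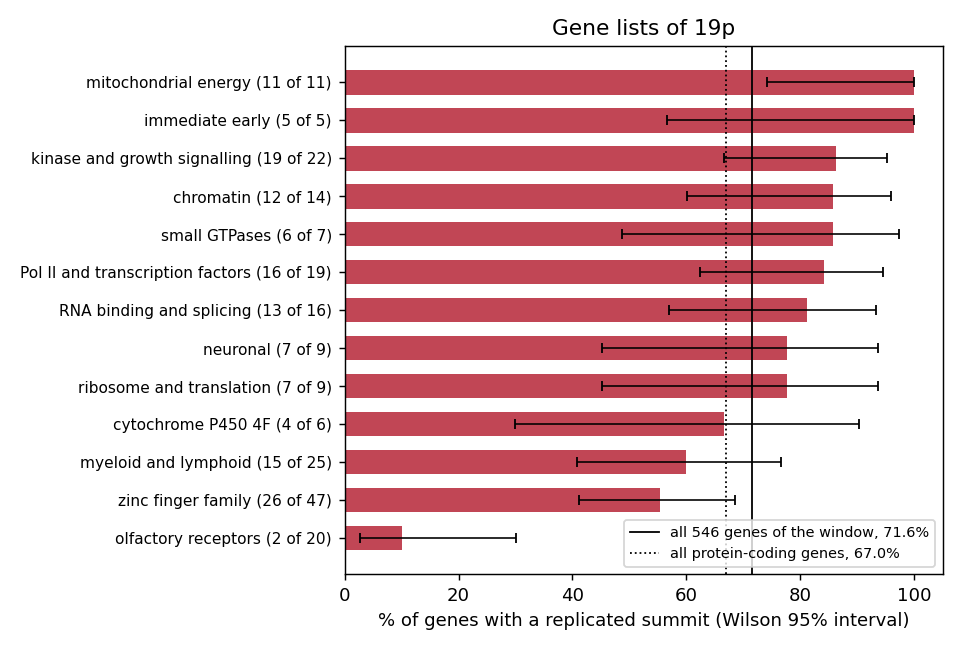
Share of the genes of each list with a replicated summit inside or within 5 kb (bars, with 95% Wilson intervals), beside all 546 genes of the window (solid line, 71.6%) and all protein-coding genes (dotted line, 67%). The mitochondrial energy list, which includes import and mitochondrial ribosome genes, reaches 11 of 11, and olfactory receptor genes 2 of 20.

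Of the 592 listed promoter windows of protein-coding genes on the arm, several of which can belong to 1 gene, 287 (48.5%, 44.5 to 52.5%) lay under a replicated peak, against 48% of all 22198. Those under a peak had a median GC share of 67.0% and 29 CpG, and the 305 others had 63.3% and 14 CpG. GGGCGG, sought on both strands, was in 83.6% of the windows under a peak and in 60.3% of those not under one, and it was in 71.6% of all windows of the arm and 56.3% of all windows. The NRF1 core was in 19.9% under a peak, 6.56% not under one, 13.01% of all windows of the arm and 10.6% of all windows. These shares count every match of the loose form, whatever its middle bases.

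The other motifs were sought on both strands too. CCAAT was in 42.2% under a peak and 34.8% not under one (34.7% of all windows), CCGGAAG, an ETS site, in 18.5% and 9.84% (12.8% of all), and CACGTG, an E-box, in 10.5% and 7.87% (8.34% of all). TATAAA went the other way, with 4.18% under a peak and 9.18% not under one (9.47% of all). TGACGTCA was in 3.48% and 2.95% (2.26% of all).

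The share of windows under a peak was compared again at a like GC share, but the motif shares were not. With a GC share of 65% or more, 57.4% (51.9 to 62.8%) of 310 windows on the arm lay under a replicated peak, against 63.6% (62.6 to 64.6%) elsewhere. Between 50 and 65% the shares were 41.9% on the arm and 48.5% elsewhere, and under 50% they were 14.7% and 14.4%. Windows with a divergent partner starting within 1 kb lay under a peak at 65.2% (53.1 to 75.5%) on the arm, against 77.0% elsewhere, and windows without one at 46.4% and 44.8%.

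Of 44 microRNA genes on the arm, 10 (22.7%, 12.8 to 37.0%) had a replicated summit inside or within 1 kb, against 9.67% of all microRNA genes. Of these, 8 overlap a protein-coding gene, among them MIR6790 in GTF2F1, MIR1199 in MISP3 and MIR6789 in PLEKHJ1. The replicated peak itself covered 7 of the 10: these 3, MIR1181, MIR638, MIR639 and MIR3188. The 3 with the highest folds in WT replicate 1 among the 7 are shown, a choice made after their values were seen. Their mature RNAs follow (RefSeq, GRCh38.p14), with the seed, bases 2 to 8, in capitals; no seed is shared among the 6.

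hsa-miR-6790-5p: gUGAGUGUggauuuggcgggguu
hsa-miR-6790-3p: cGACCUCGgcgaccccucacu
hsa-miR-1199-5p: cCUGAGCCcgggccgcgcag
hsa-miR-1199-3p: uGCGGCCGgugcucaaccugc
hsa-miR-6789-5p: gUAGGGGCgucccgggcgcgcggg
hsa-miR-6789-3p: cGGCGCCCgugucuccuccag

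The MIR6790 site was 13.6-fold and 7.20-fold with its summit 378 bp from the microRNA gene. The MIR1199 site was 11.8-fold and 9.39-fold with its summit 882 bp away. The MIR6789 site, which is also the best site of DOT1L, was 11.8-fold and 6.88-fold with its summit 621 bp away. The closest summit to any microRNA gene of the arm was 25 bp from MIR3188, at 4.73-fold and 3.05-fold, which is also the site of JUND.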

How the data were processed

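GapR-GFP CUT&RUN libraries (75 bp paired-end) were processed by the authors with Bowtie2 2.3.4, MACS2 2.1.2, ChIPseeker 1.28.3 and hg38, per the submitters' processing notes. Each WT library was called singly against MT replicate 1 at a q-value threshold of 0.05, with a minimum length of 200 bp and at most 2 duplicate fragments, per the file headers. The deposited lists give the fragment coverage (signal) at the summit, the fold over the local MT level (a ratio, after adding 1 to both), and −log10 of the p-value and q-value. Coverage was not scaled between the WT libraries.

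From the lists, replicated peaks (overlap of at least 1 bp), densities in 1 Mb bins, and counts per gene (inside or within 5 kb) were computed. Only bins with a summit or a gene start or end were used, each counted as a full 1 Mb. Densities and shares of bases elsewhere therefore leave out bins with none of these. Python 3.11.15, numpy 2.4.6, pandas 2.3.3, scipy 1.17.1 and matplotlib 3.10.9 were used, and the scripts were tested on simulated data. Genes came from the RefSeq GRCh38.p14 table, 789 rows on scaffolds left out. A start and strand were listed for 455 of 546 protein-coding genes of the arm and 15842 of 19862 overall. Start classes left out chromosome 8, which was not used there. Wilson intervals are at 95%. No test was run, since both lists share 1 control.

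The window and the gene lists were chosen with earlier results of these data known. The genes named are the 12 with the best worse rank of fold in both lists, the 6 with most replicated summits, the 6 of at least 2 kb most covered, the 6 longest, the 5 longest without a summit, and of each list the best 2 and the longest without a site, with the 10 best and 5 longest replicated peaks. Other list members named were chosen after their values were seen. Some genes that this rule selects are not reported here. The alternatives tried were other overlaps, thresholds, windows and single lists.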

Additional observations from a re-analysis of the deposited data

How the results depend on the processing

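The density of replicated peaks on the arm was 3.02 times that of all chromosomes. It was 2.0996 to 2.93 times with either WT list alone, 3.64 times with −log10 q of at least 5 in both lists, 3.89 times with peaks at or above the median fold of their list, and 5.37 times with peaks at the lowest MT level. With summits below 24 Mb it was 2.52 times. Per protein-coding gene it turned below 1, to 0.705 times. The share of WT replicate 1 peaks found in the other list, 56.3%, was 32.3% when 50% of both peaks had to overlap and 89.8% when counted from WT replicate 2. The share of genes with a site, 71.6%, was 75.6 to 82.6% with either list alone, 51.1% with the 50% overlap, 59.3% with −log10 q of at least 5, 61.0% at or above the median fold, 43.6% at the lowest MT level, 62.6% within 1 kb of the gene and 42.1% inside it. The share of summits at gene boundaries, 40.7%, was 32.1 to 39.5% with either list alone and 33.4% within 500 bp. The median fold, 6.91, was 4.95 to 5.01 with either list alone and 5.08 from WT replicate 2. The alternatives for the density beyond gene ends, 0.0475 per kb per gene, were chosen after the data were seen. This density was 0.0687 to 0.0801 with either list alone. Over 1 kb from any start it was 0.0264, with the length in kb not reduced. The stricter filters keep fewer peaks by construction; beyond that the cause was not tested. In all, 24 alternative values moved by less than the spread between the lists and 22 by more. For some results the values with either list alone set this spread and are also counted among the alternatives, so for these the comparison is circular. For the share found in the other list that spread is an SD of 23.7 points. It compares lists of unlike length, so moves within it do not show that this share is stable. No paired analysis was possible because the result comes from no test and both lists share MT replicate 1. With 2 lists and 1 control, the spread between MT libraries is unknown, and low-fold peaks were replicated least.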
